A study of Mus musculus with 4 samples.

Results

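The RNAs of the diacylglycerol kinases were measured in RAW264.7, a macrophage-like mouse cell line, by hybridization to a whole-genome Agilent array. Probes were assigned through their RefSeq accessions to the 7 genes Dgka, Dgkd, Dgke, Dgkg, Dgkh, Dgkq and Dgkz, out of 22911 genes on the array, and 14 probes of 56605 belonged to them. The family was chosen after its levels on the same 4 arrays were known, so its values are a description and carry no test. The 4 groups were SiControl (a non-targeting siRNA) with DMSO, SiControl with Lipopolysaccharides (LPS, a ligand of Toll-like receptor 4 from the outer membrane of Gram-negative bacteria), SMARTpool_siRvbl2 (an siRNA pool) with DMSO, and the same pool with Lipopolysaccharides. The spelling siRvbl2 was taken as Ruvbl2, which the series' design text names. Ruvbl2 encodes an AAA+ ATPase of chromatin remodelling and chaperone complexes, and the question of the series was what it does in the proinflammatory response to LPS. All groups were transfected, by electroporation or with a lipid reagent, and analysed 2 days later. The sources used here do not give which method was used, nor how much LPS was added and for how long. Each group was 1 array of a single cell line, so no value has a replicate and the number of arrays limits every comparison.

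Diacylglycerol kinases phosphorylate diacylglycerol, the lipid that phospholipase C releases from membrane phosphoinositides, to phosphatidic acid. The reaction ends the signal that diacylglycerol sends to protein kinase C, RasGRP exchange factors and chimaerins, and it supplies phosphatidic acid, itself a signalling lipid and a precursor for phosphoinositide resynthesis. The mammalian family is sorted by its regulatory domains into type I (Dgka, Dgkb and Dgkg, with calcium-binding EF hands), type II (Dgkd, Dgkh and Dgkk, with a pleckstrin homology domain), type III (Dgke, without further regulatory domains), type IV (Dgkz and Dgki, with ankyrin repeats) and type V (Dgkq). The enzymes are best known in leukocytes from T cells, where they limit signals from the antigen receptor.

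A level is the log2 processed signal of a probe minus the 75th percentile of its array, so that 0 is that percentile, and each gene was read by the probe whose mean level over the arrays was highest. Levels of different probes were not set against each other, because probes differ in how well they hybridize. The spread was taken from 300 probes printed 10 times on each array, most of them bright. Counting each probe on each array, 1071 lay above a level of 3. Only 17 lay between 0 and 3, 24 between -4 and 0 and 31 between -6 and -4. The technical SD of a log2 difference from these spots was 0.68 between levels of -6 and -4 and 0.26 between -4 and 0. It was 0.13 between 0 and 3 and 0.06 above 3. Because it comes from spots within an array, it holds nothing of the variation between arrays, labelling reactions or cultures. A difference of several technical SD between arrays can therefore still lie within that variation. A difference was counted when it reached 1 on the log2 scale, a 2-fold change. Between 54.1% and 55.0% of RNA spots were well above background on each array, and the 75th percentile ran from 331 to 456 units of processed signal. Ruvbl2 RNA, read by its brighter probe and scaled, was at 79.2% of the control siRNA array in DMSO and 75.7% in LPS. Each log2 difference had a technical SD of 0.06. The DMSO value depends on the scaling: the unscaled signals were 14670 with control siRNA and 8418 with Ruvbl2 siRNA. Scaling on spike-in probes instead moved the median of all genes in DMSO from 0.04 to -0.26. A dimmer Ruvbl2 probe gave 68.5% in DMSO and 92.2% in LPS, the latter a log2 difference of -0.12 within its technical SD of 0.26, so the targeted RNA was only partly lower and the probes disagreed on its size in LPS. Since the control siRNA arrays occupied slide row 1 and the Ruvbl2 siRNA arrays slide row 2, position and siRNA cannot be told apart. All 10 macrophage markers examined were well above background on all 4 arrays, with summed processed signals of 436000 to 552000. Of 5 T cell markers with a probe, 3 were above background on all arrays (summed signal 479 to 595): Cd3e, Cd3d and Cd28. Of 5 markers each, the count was 1 for B cells (Pax5), 1 for fibroblasts (Col1a2) and 0 for epithelium. In such bulk RNA, fewer cells that express a gene and less RNA per cell cannot be told apart.

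All 7 kinases had at least 1 probe well above background on all 4 arrays. Of the 14 probes, 10 cleared background on each of the 4 arrays and 2, both for Dgkh, on none. The remaining 2 were each above background on 2 arrays, the dimmer Dgka probe on both control siRNA arrays and the dimmer Dgkg probe on both DMSO arrays. The other family genes on the array, Dgkb, Dgki and Dgkk, were read by 5 probes, of which 0 were well above background on any array. The RNA detected thus came from 7 of 10 family genes and included a member of each of the 5 types.

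**Figure D1:**
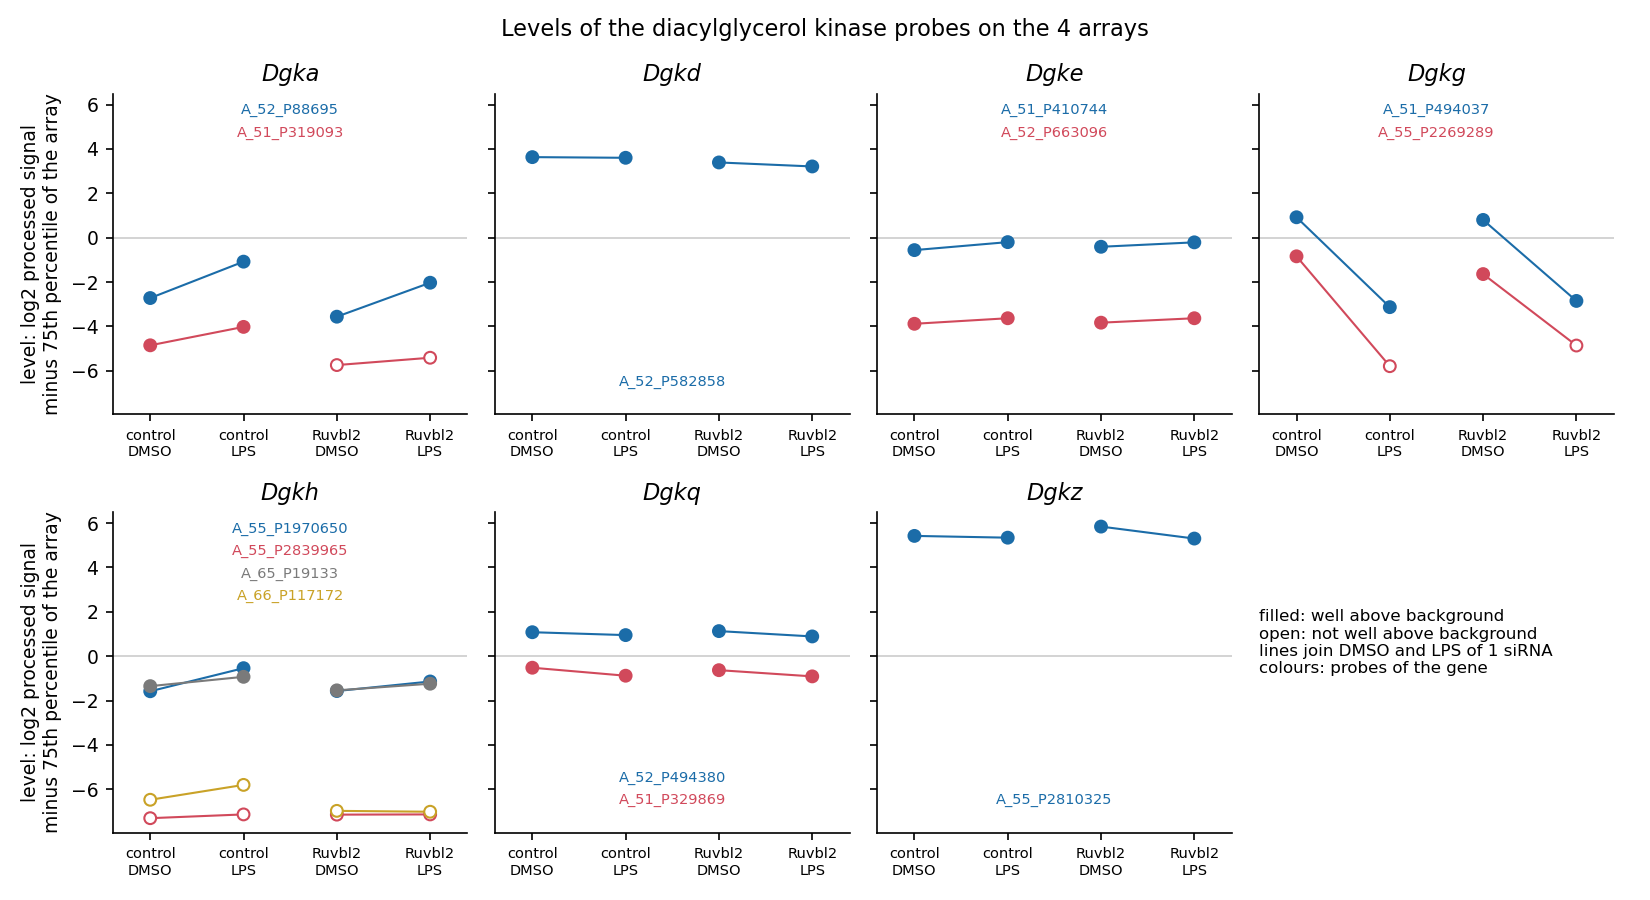
Each panel plots the level (log2 processed signal minus the 75th percentile of the array) of every probe of 1 diacylglycerol kinase on the 4 single arrays, coloured by probe. Filled points are well above background and open points are not; lines join DMSO and LPS of the same siRNA. The brighter Dgkg probe runs from 0.92 to -3.13 with control siRNA and from 0.80 to -2.85 with Ruvbl2 siRNA, while Dgkd and Dgkz stay between 3.21 and 5.84.

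The question of the first pair of comparisons was how the kinases differed between LPS and DMSO. With control siRNA, 2 of 7 kinases, Dgka and Dgkh, were higher past 2-fold and 1, Dgkg, was lower. Over all 13512 genes compared, 7.95% passed in either direction, 5.74% higher and 2.21% lower. With Ruvbl2 siRNA, Dgka was higher past 2-fold and Dgkg lower, against 4.14% of 13517 genes higher and 2.07% lower (6.21% in either direction). These pairs of arrays share no array. The median difference of the 7 kinases was -0.02 with control siRNA and -0.18 with Ruvbl2 siRNA, beside -0.00 and -0.03 over all genes, so the middle of the family lay near that of all genes while Dgkg and Dgka lay far from it.

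Dgkg, a type I kinase, was the member with the widest range. Its brighter probe gave a processed signal of 863.9 with control siRNA and DMSO, 45.24 with control siRNA and LPS, 577.5 with Ruvbl2 siRNA and DMSO and 56.6 with Ruvbl2 siRNA and LPS. As levels these were 0.92, -3.13, 0.80 and -2.85. Both DMSO arrays were high and both LPS arrays low. The share of all genes whose arrays separate in this way was not computed. Of 13106 genes compared in both pairs, 134 (1.02%) were lower past 2-fold in both. The log2 difference between LPS and DMSO was -4.05 (technical SD 0.21) with control siRNA, 16.5-fold lower, and -3.65 (technical SD 0.21) with Ruvbl2 siRNA, 12.6-fold lower. LPS cells thus held 6.05% and 7.96% of the Dgkg signal of their DMSO partners. Dgkg had the lowest difference of 13512 genes with control siRNA and of 13517 with Ruvbl2 siRNA. This order holds among differences cut off at background: a gene whose LPS value was not well above background was set no lower than the floor of the array, so its full difference could be larger. With normexp background correction and quantile normalization the differences were smaller, -2.93 and -2.71.

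The dimmer Dgkg probe gave signals of 254.3, 7.145, 106.2 and 14.01 in the same order of arrays, and both of its LPS values were too near background to count as measured. It also was high on both DMSO arrays and low on both LPS arrays. Set against each LPS array's floor, which is the lowest level at which a probe there was still well above background, it was at least 15.9-fold lower in LPS with control siRNA and at least 9.04-fold lower with Ruvbl2 siRNA. The loss of Dgkg signal under LPS was therefore read by 2 probes of the gene. The probes disagreed on the siRNA comparison in DMSO, where the brighter differed by -0.12 (technical SD 0.13) and the dimmer by -0.80 (technical SD 0.26).

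The Dgkg promoter is shown because Dgkg carried the largest difference in the family. RefSeq places 1 start for it, and the window of 250 bases before and 50 after lies on the minus strand at chr16:22657182-22657481 (GRCm38.p6). Capitals mark an E-box, CACGTG, 117 bases before the start and a GC box, GGGCGG, 46 bases before it.

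Dgkg: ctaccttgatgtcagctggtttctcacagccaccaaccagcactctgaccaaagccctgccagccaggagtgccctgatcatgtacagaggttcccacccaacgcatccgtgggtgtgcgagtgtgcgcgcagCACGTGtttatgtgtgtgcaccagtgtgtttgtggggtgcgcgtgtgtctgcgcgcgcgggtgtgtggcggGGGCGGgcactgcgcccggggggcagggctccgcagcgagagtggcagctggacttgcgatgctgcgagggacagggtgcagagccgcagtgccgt

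This window was 65.0% G and C with 22 CG pairs, against medians of 52.7% and 7 over 32851 mouse promoters of the same length. It held no match to the AP-1 letters TGANTCA or to GAGGAA, the core bound by ETS factors and PU.1, a transcription factor of the macrophage lineage.

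Dgka, the other type I kinase detected and one best known for limiting T cell receptor signals, moved the other way. Its brighter probe gave signals of 69.08 with control siRNA and DMSO, 187.1 with control siRNA and LPS, 27.99 with Ruvbl2 siRNA and DMSO and 99.79 with Ruvbl2 siRNA and LPS. The levels were -2.72, -1.08, -3.56 and -2.03. Each LPS array was above both DMSO arrays, and within each treatment the Ruvbl2 siRNA array was the lower. The log2 difference between LPS and DMSO was 1.64 (technical SD 0.26), 3.13-fold, with control siRNA and 1.53 (technical SD 0.26), 2.90-fold, with Ruvbl2 siRNA. Differences that large or larger were held by 349 of 13512 genes (2.58%) with control siRNA and 270 of 13517 (2.0%) with Ruvbl2 siRNA. Of 13106 genes compared in both pairs, 192 (1.46%) were as high in both. Neither Dgka difference reached 2-fold with normexp and quantile normalization, which gave 0.95 and 0.67. The dimmer Dgka probe was measured under both treatments with control siRNA alone, at levels of -4.85 and -4.02, a difference of 0.83 with a technical SD of 0.68.

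Dgka and Dgkg, both type I, thus differed in opposite directions between LPS and DMSO. On the array with control siRNA and LPS the Dgka probe was at its highest level of the 4 and the Dgkg probe at its lowest. The 4 levels of Dgka were each further apart than the technical SD, in the order control LPS, Ruvbl2 LPS, control DMSO and Ruvbl2 DMSO. For Dgkg, the 2 DMSO levels lay within the technical SD of each other and the 2 LPS levels about 1 technical SD apart.

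RefSeq lists 4 starts for Dgka. The one furthest along the gene is shown because it is the only window among the 13 of the family with a TATA match. It lies at chr10:128737563-128737862 on the minus strand (GRCm38.p6). Capitals mark GC boxes (CCGCCC, the other strand of GGGCGG) at 164 and 99 bases before the start, GAGGAA at 152, TATAAA at 66 and CACGTG at 17.

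Dgka: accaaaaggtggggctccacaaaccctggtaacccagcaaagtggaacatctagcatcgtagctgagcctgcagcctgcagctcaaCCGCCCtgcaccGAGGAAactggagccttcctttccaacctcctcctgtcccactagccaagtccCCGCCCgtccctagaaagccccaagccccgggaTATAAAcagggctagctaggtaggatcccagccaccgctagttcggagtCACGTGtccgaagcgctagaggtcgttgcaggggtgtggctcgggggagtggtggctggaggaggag

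Which of the 4 starts the RNA on these arrays came from was not tested.

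Of the type II kinases, Dgkh was higher in LPS with control siRNA and Dgkd was not. The Dgkh probe that represented the gene gave signals of 152.9, 272.7, 111.1 and 184.5 on the control DMSO, control LPS, Ruvbl2 DMSO and Ruvbl2 LPS arrays, or levels of -1.58, -0.54, -1.57 and -1.14. The control LPS array was the highest and the DMSO arrays were alike. The LPS difference was 1.04 (2.06-fold, technical SD 0.26) with control siRNA and 0.43 (1.35-fold, technical SD 0.26) with Ruvbl2 siRNA. With control siRNA, 731 of 13512 genes (5.41%) had a difference as high. The count of Dgkh as past 2-fold was marginal: it became 0.77 with normexp and quantile normalization and 0.73 as the mean of the gene's probes. A second Dgkh probe, at levels of -1.35, -0.93, -1.54 and -1.24, gave LPS differences of 0.42 and 0.30 (technical SD 0.26 each).

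The first of the 3 RefSeq starts of Dgkh is shown because its window is rich in the same letters as the Dgkg window. It lies at chr14:78732680-78732979 on the minus strand (GRCm38.p6), and capitals mark CACGTG at 150 bases before the start and GC boxes at 135, 106 and 49.

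Dgkh: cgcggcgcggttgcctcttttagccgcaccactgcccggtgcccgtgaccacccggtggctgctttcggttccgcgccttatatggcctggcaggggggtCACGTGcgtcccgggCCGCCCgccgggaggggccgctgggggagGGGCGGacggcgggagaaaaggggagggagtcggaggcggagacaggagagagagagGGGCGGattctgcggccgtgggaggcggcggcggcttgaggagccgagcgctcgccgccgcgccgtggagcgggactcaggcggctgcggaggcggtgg

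This window held 40 CG pairs, and 3.91% of mouse promoters held as many.

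Dgkd, the other type II kinase detected, had levels of 3.63 and 3.60 with control siRNA in DMSO and LPS and of 3.39 and 3.21 with Ruvbl2 siRNA. Both control siRNA arrays were above both Ruvbl2 siRNA arrays, a drop that 12.7% of genes in DMSO and 10.7% in LPS equalled or exceeded. Its LPS differences were -0.02 with control siRNA and -0.18 with Ruvbl2 siRNA (technical SD 0.06 each), and scaling on the spike-in probes turned their sign, to 0.05 and 0.19.

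Dgke, the type III kinase, which prefers arachidonate-containing diacylglycerol, had levels of -0.56, -0.20, -0.41 and -0.21 on the control DMSO, control LPS, Ruvbl2 DMSO and Ruvbl2 LPS arrays. Its LPS differences of 0.36 and 0.20 had a technical SD of 0.26. The second Dgke probe gave 0.25 and 0.20, so both probes were within about 1.5 technical SD of no difference. All 4 Dgke levels lay within 0.36 of each other.

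Dgkz, the type IV kinase, which carries ankyrin repeats, had signals of 19540 and 16050 with control siRNA in DMSO and LPS and of 18900 and 16040 with Ruvbl2 siRNA. Its levels were 5.42, 5.34, 5.84 and 5.30. The Ruvbl2 siRNA DMSO array stood above the other 3, which lay within 0.12 of each other. The LPS difference was -0.08 with control siRNA and -0.54 (1.45-fold lower) with Ruvbl2 siRNA, each with a technical SD of 0.06. With Ruvbl2 siRNA, 9.45% of genes were as low or lower. The Ruvbl2 DMSO array was also the one on which the spike-in probes stood highest relative to the 75th percentile (median level 3.95, against 3.57 to 3.64 on the others), and scaling on the spike-ins gave -0.17 for this difference.

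Dgkq, the type V kinase, had levels of 1.08, 0.95, 1.13 and 0.89 in the same order of arrays. The LPS array was the lower in both pairs, with differences of -0.13 and -0.24 (technical SD 0.13), the latter of which turned to 0.12 with spike-in scaling. Its other probe gave -0.36 and -0.28 with a technical SD of 0.26. Neither Dgke nor Dgkq reached 1.5-fold in any pair of arrays.

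**Figure D2:**
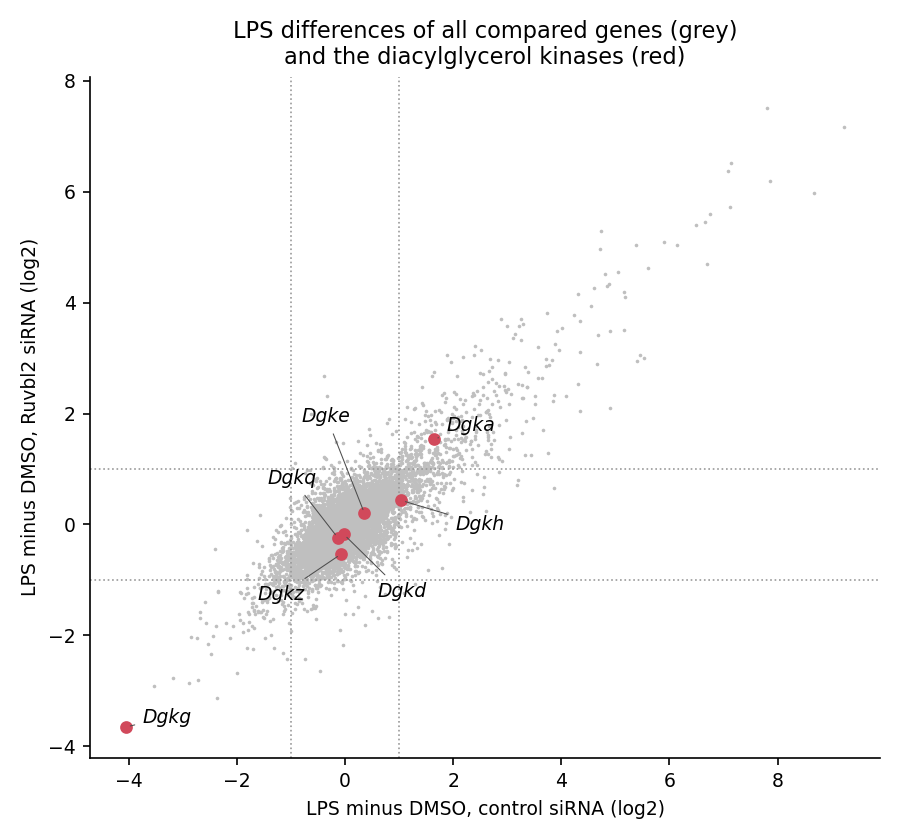
Each point is 1 gene compared in both pairs of arrays, placed by its log2 difference between LPS and DMSO with control siRNA (x axis) and with Ruvbl2 siRNA (y axis); dotted lines mark 2-fold. Dgkg lies at -4.05 and -3.65, below and left of all other genes, Dgka at 1.64 and 1.53, and the other 5 kinases near the main cloud.

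The second pair of comparisons set Ruvbl2 siRNA against control siRNA within each treatment; it uses the same 4 arrays as the LPS comparisons and is not independent of them. In both treatments 0 of 7 kinases reached 2-fold, against 1.55% of 13418 genes in DMSO (1.01% higher, 0.537% lower) and 2.52% of 13472 in LPS (1.06% higher, 1.46% lower). The median difference of the kinases was 0.00 in DMSO and -0.06 in LPS, beside 0.04 and 0.00 over all genes.

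Dgka had the lowest difference in both treatments. It was lower with Ruvbl2 siRNA by -0.84 in DMSO (55.9% of the scaled control siRNA signal) and by -0.95 in LPS (51.8%). Each had a technical SD of 0.26. Differences that low were held by 131 of 13418 genes (0.976%) in DMSO and by 1.68% of 13472 genes in LPS, and 34 of 12966 genes compared in both treatments were as low in both. The dimmer Dgka probe, above background with control siRNA alone, was at least 1.73-fold lower with Ruvbl2 siRNA in LPS. That limit, -0.79 on the log2 scale, was little more than its technical SD of 0.68. In DMSO the dimmer probe gave no limit. The size in DMSO moved with the processing, from -0.35 with normexp and quantile normalization to -1.14 with spike-in scaling. Past 1.5-fold, Dgka was lower in DMSO and Dgka and Dgkh were lower in LPS, against 2.5% and 5.26% of all genes.

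Dgkh differed by 0.00 between the siRNAs in DMSO and by -0.61 in LPS (technical SD 0.26 each). The latter was 65.7% of the scaled control siRNA signal. The second Dgkh probe gave -0.19 and -0.31. Dgkd was lower in both treatments, by -0.24 in DMSO and -0.39 in LPS (technical SD 0.06). This left 84.9% and 76.1% of the scaled control signal, and 12.7% of genes in DMSO and 10.7% in LPS were as low or lower. Dgkz was higher in DMSO by 0.42 (1.33-fold, technical SD 0.06), a size that 7.65% of genes reached, and differed by -0.04 in LPS. With spike-in scaling, which moved the median of all genes in DMSO to -0.26, the Dgkz difference became 0.11 and that of Dgkd -0.54. Dgkg differed by -0.12 in DMSO (technical SD 0.13) and 0.28 in LPS (technical SD 0.26). Dgke differed by 0.15 and -0.02 and Dgkq by 0.05 and -0.06, all within their technical SD, and spike-in scaling turned the values in DMSO to -0.16 and -0.25.

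**Figure D3:**
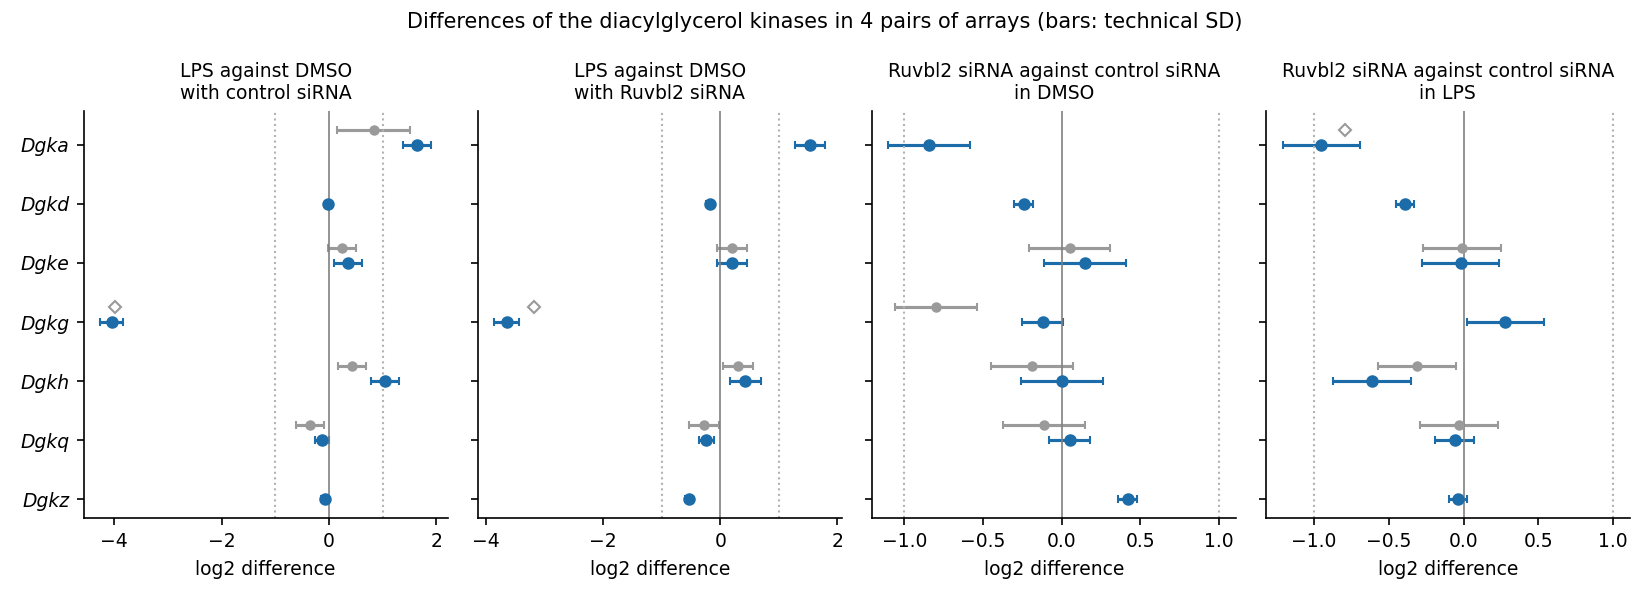
Each panel gives the log2 difference of the 7 kinases in 1 pair of arrays, with bars for the technical SD (blue, the probe that represents the gene; grey, another probe of the gene; open diamonds, values limited by background). The x axis of the siRNA panels covers a narrower range than that of the LPS panels, and dotted lines mark 2-fold in each. Dgkg and Dgka lie past the lines in both LPS panels, and no kinase does in the siRNA panels.

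The LPS effects with the different siRNAs were set against each other for the 12471 genes well above background on all 4 arrays. Of the 7 kinases, 0 differed past 2-fold, against 1.69% of all genes (0.513% higher, 1.18% lower). The LPS effect on Dgkh was smaller with Ruvbl2 siRNA by -0.61 (technical SD 0.37), a difference past 1.5-fold that 5.22% of all genes reached in that direction, while its second probe gave -0.12. It was under 1.5-fold in other settings, at -0.31 with spike-in scaling, -0.36 with normexp and quantile normalization and -0.36 as the mean of the gene's probes. The LPS difference of Dgkg was shallower by 0.40 (technical SD 0.29), or 0.69 with spike-in scaling, and the rise of Dgka smaller by -0.11 (technical SD 0.37), the latter turning to 0.19 with spike-in scaling. Dgkz differed by -0.46 (technical SD 0.09), with the Ruvbl2 DMSO array the highest of its 4, and by -0.16 with spike-in scaling. Dgkd and Dgke differed by -0.16 each and Dgkq by -0.11, and spike-in scaling turned these to 0.14, 0.14 and 0.18. The median of the kinases was -0.16, beside -0.03 over all genes.

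Genes with the most similar pattern were sought among 11630 genes well above background on all arrays, with clone, Gm and LOC symbols left out. Likeness was measured by the root mean square difference between levels centred on their own mean over the 4 arrays. For Dgkg the nearest was Hpgd, which encodes the enzyme that inactivates prostaglandins, at 0.36, followed by St6gal1, a sialyltransferase, at 0.50, Il4i1, a secreted amino acid oxidase, at 0.53, Lsp1, an actin-binding protein of leukocytes, at 0.57 and Myadml2 at 0.71. None came within 0.3 of Dgkg. Hpgd had levels of -0.43, -3.98, -1.0 and -3.90, and LPS differences of -3.54 and -2.90. These genes all lay high on the DMSO arrays and low on the LPS arrays, with smaller differences than Dgkg with control siRNA.

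For Dgka, 65 genes came within 0.3. The nearest were H2-T10, a class I major histocompatibility gene, at 0.08, Btg3, a member of an antiproliferative family, at 0.09, Phf11a at 0.10, Galnt3, which starts O-linked glycosylation, at 0.10, and Phf11d at 0.12. Each was higher in LPS with both siRNAs and lower with Ruvbl2 siRNA in both treatments, as Dgka was. H2-T10 differed between LPS and DMSO by 1.69 and 1.36, and by -0.62 and -0.96 between the siRNAs. The Dgkh pattern was common: 1662 genes came within 0.3, the nearest being Txndc16 at 0.02, Lbh at 0.03, Tm7sf3 at 0.04, Ankrd50 at 0.04 and the zinc transporter Slc30a4 at 0.05. Such a match over 4 single arrays is a description of these arrays.

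**Figure D4:**
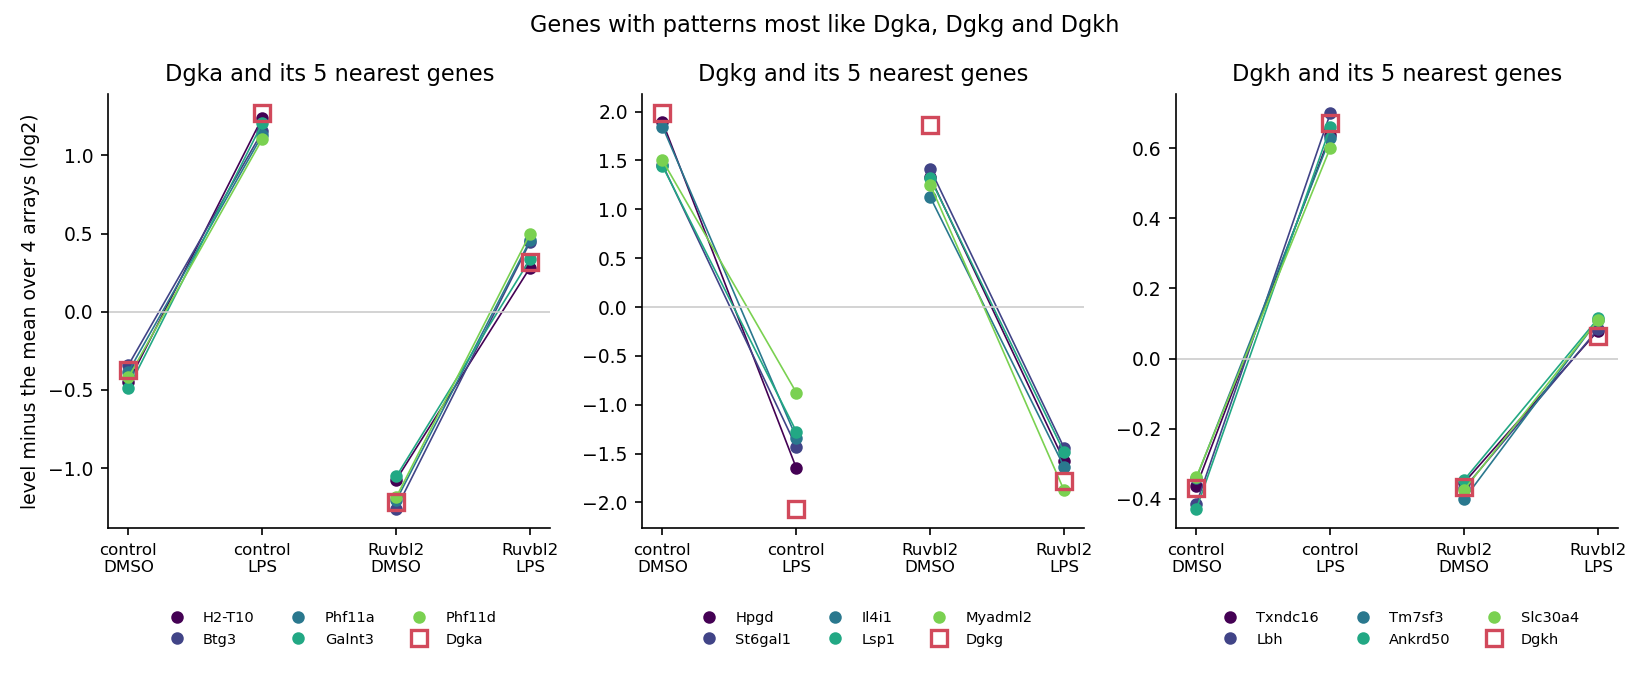
Levels centred on each gene's mean over the 4 arrays are plotted for Dgka, Dgkg and Dgkh (red squares) and the 5 genes nearest to each (points), with lines joining DMSO and LPS of the same siRNA. The y axes differ in range between panels; the genes near Dgkg are 0.36 to 0.71 from it, those near Dgka 0.08 to 0.12 and those near Dgkh 0.02 to 0.05.

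The 67 other genes of diacylglycerol and phosphatidic acid metabolism were grouped by role, and 53 could be compared in each pair of arrays. With control siRNA, 2 were higher in LPS past 2-fold and 0 lower, against 5.74% and 2.21% of all genes. With Ruvbl2 siRNA 1 was higher and 1 lower, against 4.14% and 2.07%. Between the siRNAs 0 passed in either treatment, against 1.55% of all genes in DMSO and 2.52% in LPS. Their median LPS differences were 0.03 and -0.09. Dgkg and Dgka thus lay further from 0, in their directions, than each of these genes in both LPS comparisons. Other probes of the list genes are given only where the gene passed 2-fold. Of the genes named below, Cerk, Plcb4, Plcb2, Rasgrp3, Chpt1 and Pitpnm1 had further probes whose values are not given.

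Upstream, the 7 makers of diacylglycerol that could be compared, out of 14, held 0 genes past 2-fold in any pair of arrays. Among those well above background on all 4 arrays, Plcb4 and Plcb2, phospholipases C coupled to G proteins, had the widest ranges, with LPS differences of -0.72 and -0.42 for Plcb4 and 0.44 and 0.23 for Plcb2. Among the enzymes that share the kinase fold, ceramide kinase (Cerk) differed between LPS and DMSO by -0.60 with control siRNA and -0.92 with Ruvbl2 siRNA, and Agk, a mitochondrial acylglycerol kinase, ranged over 0.33.

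Of the 16 effectors that bind diacylglycerol, 11 could be compared. Prkca, a classical protein kinase C, was higher in LPS by 1.18 and 1.25, but its second probe, also above background on all arrays, gave -0.61 and -0.23, so its direction is unsettled. Chn1, a chimaerin that inactivates Rac, differed by -0.55 with control siRNA. With Ruvbl2 siRNA it was 2.86-fold lower, with a technical SD of 0.52, and the 1 lower gene counted there rests on it. The LPS level of Chn1 there, -4.72, was not well above background but lay above the array's floor of -4.82. The value is therefore an observed difference with an unreliable LPS side, and not a limit. Its other 2 probes were above background on no array. Rasgrp3, an exchange factor for Ras and Rap, fell just short of 2-fold, at -0.99 with control siRNA, and gave -0.50 with Ruvbl2 siRNA.

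Of the other enzymes that consume diacylglycerol, 6 of 7 could be compared and 0 passed 2-fold. Daglb, a lipase that releases the endocannabinoid 2-arachidonoylglycerol, differed by -0.86 and -0.76 with a technical SD of 0.10, and Chpt1, which makes phosphatidylcholine, gave 0.18 and 0.23 with a technical SD of 0.26. Among 14 of 15 other enzymes that make or remove phosphatidic acid, Agpat3, an acyltransferase, was higher in LPS by 1.06 and 0.81, while its second probe gave -0.26 and 0.48. Cds1 uses phosphatidic acid for phosphoinositide resynthesis. It was the 1 gene of the 49 compared whose LPS effects differed past 2-fold between the siRNAs (1.69% of all genes), by 1.18. Its levels were dim, at -3.78, -4.6, -4.64 and -4.29. The LPS differences of Cds1 were -0.82 and 0.35, with technical SDs of 0.52 and 0.68. All 11 genes of phosphoinositide resynthesis were compared and 0 passed; Pitpnm1, a phosphatidylinositol transfer protein, gave 0.95 and 0.57 and Pi4k2b, a phosphatidylinositol kinase, 0.70 and 0.33.

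**Figure D5:**
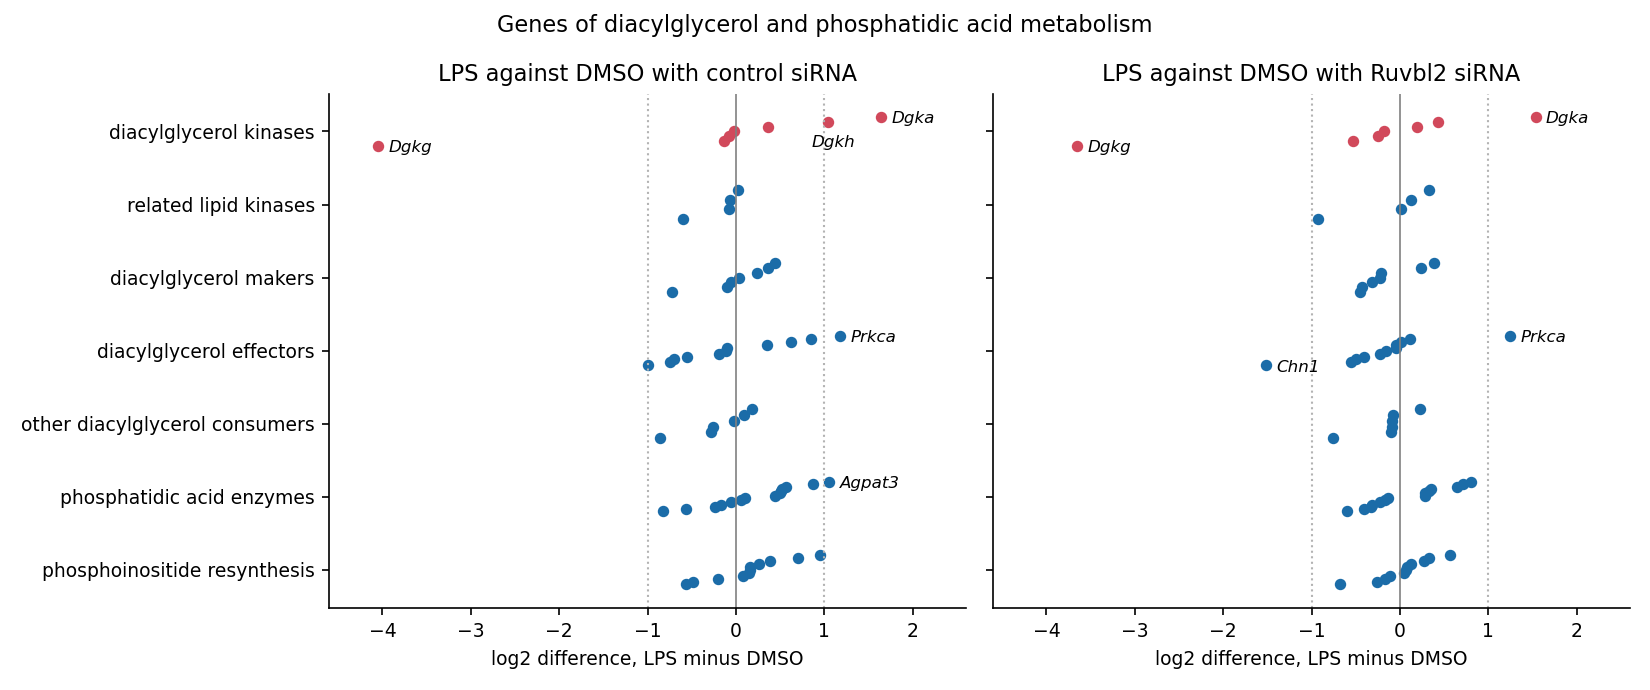
Each point is 1 gene, placed by its log2 difference between LPS and DMSO with control siRNA (left) or Ruvbl2 siRNA (right) and grouped by role, with the diacylglycerol kinases in red; dotted lines mark 2-fold and genes past them are named. Dgkg at -4.05 and -3.65 lies far left of all other genes shown, and Dgka at 1.64 and 1.53 is the furthest right; Prkca and Agpat3 each have a second probe that gave a negative difference with control siRNA.

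Across the family, all 7 genes matched RefSeq promoters, 13 windows in all, and 12 sets of letters were searched on both strands. GGGCGG was in 10 of the 13 windows and in at least 1 window of all 7 genes, against 35.7% of all promoters. Windows with it were 58.7% to 77.7% G and C and those without it 41.3% to 46.0%, against a median of 52.7%. The shares over all promoters given here were not matched for base composition, and its part in them was not tested. CACGTG was in 5 windows from 4 genes, Dgka, Dgkg, Dgkh and Dgkq, against 7.15% of all promoters. The kinases that passed 2-fold in an LPS comparison, Dgka and Dgkh as higher and Dgkg as lower, were among these 4. So was Dgkq, which did not pass. For Dgka only the start furthest along the gene, of 4, held it. A gene with several windows has more places for a match. Whether CACGTG bears on the LPS differences was not tested. GAGGAA was in 4 windows (28.3% of all promoters) and TATAAA in 1 (13.6%). GAAANNGAA, letters bound by interferon regulatory factors, was in 2 windows, the first start of Dgka and the third start of Dgkh, against 8.56% of all promoters, but the same letters followed by a further A were in none (3.44% of all promoters). The NF-kB letters GGANTTTCC were in none of the 13 (1.25% of all promoters), also with a leading G (0.411%), while a loose NF-kB form that fixes only its outer letters was in 6 windows from 5 genes (50.8%). The AP-1 letters TGANTCA (7.81%), the cAMP response letters TGACGTCA (1.79%) and the C/EBP letters TTGCNNAA (10.8%) were in none. Letters in a window are a description and not a site of binding, and windows of 1 gene can overlap.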

How the data were processed

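RNA of 4 groups, 1 array each, was hybridized in 1 colour. Per the file headers, the deposited intensity is the processed signal of Agilent Feature Extraction 11.5.1.1 (11.0 in the submitters' processing notes), after background subtraction and on a linear scale, from 1 slide. The deposited value table equalled it at all 62976 spots of each array. Outlier spots were left out, repeated spots averaged, and log2 signals scaled to each array's 75th percentile. RefSeq accessions named 32994 of 56605 probes. Genes not well above background on either array of a pair were left out, and one dim on 1 array took that array's floor there unless its own value was higher. With 1 array per group, no test was run. Scripts were tested on simulated data. Python 3.11.15, pandas 2.3.3, R 4.3.3 and limma 3.58.1 were used. The deposited files hold no mean signal column, so the normexp alternative (offset 50) used the median signal and median background. Other alternatives were quantile normalization, cyclic loess, centring on the median, E1A spike-in scaling, the deposited table, the mean of a gene's probes, a 1.5-fold rule, a stricter filter and no filter on dim probes. The members and lists were chosen with earlier results of these data known. Every member, Ruvbl2, the list genes past 2-fold (or else the 2 with the widest range) and the 5 genes nearest to each kinase past 2-fold were named; Rasgrp3 and the marker genes were named after their values were seen. Promoters are from RefSeq, GRCm38.p6.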

Additional observations from a re-analysis of the deposited data

How the results depend on the processing

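Across 312 values of the kinases under the alternatives, 279 moved by less than the technical SD and 33 by more. Part of the 279 was fixed in advance. The deposited table equals the main signal, and the stricter filter and no filter keep or drop a value without moving it. The mean of probes cannot move Dgkd and Dgkz, which have a single probe each. The share that stayed is therefore not a measure of stability. No difference past 2-fold changed sign, and 11 smaller differences did, most under spike-in scaling. Of 3 kinases past 2-fold in LPS with control siRNA, normexp with quantile normalization left 1, Dgkg. With Ruvbl2 siRNA, 2 became 1 with normexp and quantile normalization and 1 under a filter that asks for a level of -2 on the brighter array, where Dgka was no longer compared. Between siRNAs in DMSO, 0 became 1 (Dgka) with spike-in scaling and 1 with a 1.5-fold rule. That rule gave 2 in LPS (Dgka and Dgkh) and 1 (Dgkh) for the difference of LPS effects. Apart from the rules' own construction, the cause was not tested. Spike-in scaling moved the median of all genes by more than 0.1 in 3 comparisons, to 0.34 for LPS with Ruvbl2 siRNA, -0.26 for the siRNAs in DMSO and 0.26 for the difference of LPS effects. The share of genes past 2-fold that were higher then became 90.2%, 24.6% and 78.8%, from 66.6%, 65.4% and 30.3%. With normexp and quantile normalization, run on the median signal, the number of all genes past 2-fold with control siRNA was 450 higher and 150 lower, from 776 and 298. No paired analysis was possible because no replicate numbers pair the arrays across groups; an additive fit of LPS and siRNA over the 4 arrays, which leaves 1 residual degree of freedom, was not run. Signal over background limits the dimmer Dgka and Dgkg probes, which fell to background on 2 arrays each.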
